A study of Mus musculus with 21 samples.

Results

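The 10 genes described here make, consume or regulate the polyamines putrescine, spermidine and spermine: Odc1, Amd1, Amd2, Srm, Sms, Smox, Sat1, Oaz1, Oaz2 and Azin1. They were taken as the rows of the deposited count table whose Ensembl mouse identifiers carry these symbols, which gave 10 of 46071 genes in the table, and all 10 passed the filter on low counts among the 12658 genes tested. Polyamines are small positively charged molecules that bind nucleic acids and are needed for protein synthesis and cell growth. Odc1 (ornithine decarboxylase) makes putrescine, Amd1 and Amd2 (S-adenosylmethionine decarboxylase) make the aminopropyl donor, and Srm and Sms use that donor to build spermidine and then spermine. Smox turns spermine back into spermidine, Sat1 acetylates polyamines for export or breakdown, the antizymes Oaz1 and Oaz2 send ODC protein for degradation, and Azin1 sequesters antizyme. In skeletal muscle, polyamine levels and these enzymes are known to follow growth, androgen action and atrophy.

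The study measured RNA in hindlimb muscle of mice without the transcription factors FoxO1, FoxO3 and FoxO4 in muscle, in healthy mice and in mice made diabetic with streptozotocin (STZ), which kills pancreatic beta cells. The 21 libraries formed 4 groups: 4 floxed controls without STZ, 6 triple knockouts (TKO) without STZ, 5 floxed controls given STZ and 6 triple knockouts given STZ. All groups carried floxed FoxO1, FoxO3 and FoxO4 alleles on a mixed background of C57Blk6, C57Blk6J and 129, controls were littermates, and the knockouts also carried ACTA1-Cre, whose skeletal actin promoter limits deletion to muscle fibres, so other cells of the tissue keep FoxO. STZ was given as 1 injection of 150 mg/kg to fasted mice, with a further 75 mg/kg on day 3 for females, animals without STZ received citrate buffer, and STZ animals were kept only with random glucose above 300 mg/dL. Each RNA sample mixed quadriceps and gastrocnemius, and the labels give no age and no sex of single animals and do not tie libraries to separate animals, so the p-values rest on library-to-library spread. In such bulk tissue, fewer cells of a type and less RNA per cell cannot be told apart.

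Total counts per library ranged from 2951290 to 7687823. Foxo4 averaged 160 CPM (counts scaled to a common library size) in floxed and 6.24 in TKO libraries, and Foxo1 68.9 and 14.6, whereas Foxo3 averaged 73.1 and 96.1, a count over the whole gene that does not check the deletion. Foxo4 and Foxo1 fell in both knockout comparisons (edgeR adjusted p of at most 0.000366). The 8 muscle fibre markers, among them Acta1 and Ckm, summed to 50620 to 211100 CPM over all libraries, so the tissue matched its label. All 14 macrophage markers were higher in the knockouts averaged over STZ by the same test, where 705 of all 12658 tested genes were higher and 535 lower. Their summed levels were 151.5 to 194.7 CPM in floxed, 273.5 to 1954 in TKO, 168.9 to 278.7 in STZ floxed and 274 to 2484 in STZ TKO libraries. Of 10 denervation markers, 5 were higher in the same comparison, with sums of 119.5 to 197.1, 146.4 to 990.8, 150.1 to 241.9 and 111.3 to 432.8 CPM in the same groups. There 1 of 6 endothelial markers was lower, and 1 of 6 fibroblast and 1 of 8 muscle fibre markers were higher. Library 17 (STZ floxed) had the lowest muscle fibre marker level, 2.09 log2 units below the mean of all libraries, and stood apart from its group in several values below.

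The stretches before the starts of the genes whose RNA changed most are shown because the compared genotypes differ in transcription factors. RefSeq promoter windows, on GRCm38.p6, matched 8 of the 10 genes (Srm and Azin1 had none) with 9 windows of 250 bases before to 50 after a start. The lines below print, 5′ to 3′ on the strand of the gene, the bases before the start that lie in no annotated exon, and for Smox 26 bases around a match to the letters GTAAAC, given in capitals. They are chr12:17544623-17544793 (+) for Odc1, chr10:40302189-40302438 (-) for Amd1, chr10:35711893-35712141 (-) for Amd2 and chr2:131491634-131491659 (+) for Smox, the last lying within the annotated gene and partly in an annotated exon.
Odc1: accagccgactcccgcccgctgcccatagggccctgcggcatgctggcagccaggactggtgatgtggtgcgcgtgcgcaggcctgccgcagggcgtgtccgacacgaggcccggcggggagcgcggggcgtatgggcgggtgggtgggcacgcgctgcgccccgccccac
Amd1: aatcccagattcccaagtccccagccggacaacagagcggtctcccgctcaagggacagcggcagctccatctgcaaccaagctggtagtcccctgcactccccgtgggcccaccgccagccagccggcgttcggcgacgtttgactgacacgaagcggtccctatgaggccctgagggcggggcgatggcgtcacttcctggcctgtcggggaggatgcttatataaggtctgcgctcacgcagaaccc
Amd2: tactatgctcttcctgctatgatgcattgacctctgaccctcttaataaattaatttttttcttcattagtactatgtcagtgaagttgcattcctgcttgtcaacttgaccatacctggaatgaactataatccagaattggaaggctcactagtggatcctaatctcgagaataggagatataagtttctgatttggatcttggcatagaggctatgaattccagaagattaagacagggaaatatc
Smox: cagagtctggGTAAACtgaggtgggc
The Odc1 stretch was 77.2% G or C, that of Amd1 64.4% and that of Amd2 37.3%. Amd1 and Amd2 shared no run longer than 7 bases here, against a run of 48 bases once the 50 bases after the start were included. Both strands of the full windows were searched for GTAAACA, the core letters of a forkhead element, for its shorter form GTAAAC, which every GTAAACA contains, and for CACGTG, an E-box. GTAAACA was in 0 of the 9 windows and in 3.65% of 32851 windows of this length. GTAAAC was in the windows of Smox, at -218 on the gene's strand, and of Oaz1, at -46 on the other strand, and in 7.89% of all windows. CACGTG was in 1 of 2 windows of Sms, at -196, and in 7.15% of all windows. A match is a description of letters and not of a bound site.

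Per kilobase of exon, a scale that allows for gene length, Amd1 was the highest of the 10 in floxed muscle, at 146 ± 40 CPM per kb (SD, n = 4). Smox followed at 55.5 ± 10.5, then Oaz2 at 40.8 ± 2.86, Odc1 at 39.7 ± 6.37 and Oaz1 at 34.7 ± 2.8. The levels of Oaz2, Odc1 and Oaz1 lay within 1 SD (the larger of each pair) of a neighbour in this order. Sms had 23.2 ± 2.46 CPM per kb, Azin1 8.01 ± 2.53, Sat1 6.88 ± 0.921, Amd2 6.23 ± 3.33 and Srm 3 ± 0.79, of which Azin1, Sat1 and Amd2 lay within 1 such SD of each other, and Srm within 1 such SD of Amd2. Over all 21 libraries, the mean of Amd1 exceeded that of 95.4% of tested genes and the mean of Srm that of 44.8%. Many stretches of 50 bases in some transcripts also occur in other genes: 85.7% for Amd2, 78.1% for Amd1, 24.3% for Odc1, 21% for Oaz1 and 17.5% for Sms. How such reads were counted is not given, so the levels and places of these genes, Amd2 most of all, are uncertain.

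**Figure D1:**
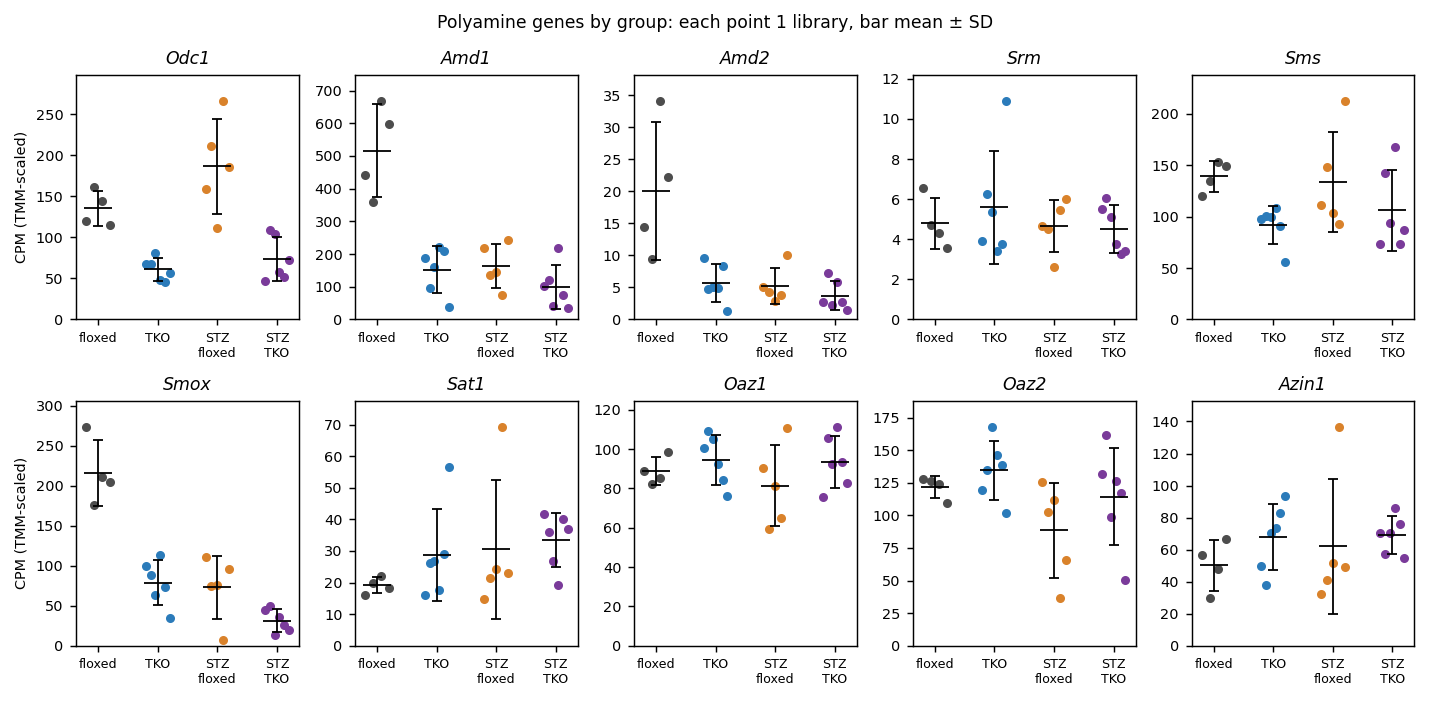
CPM (vertical axes, from 0, own scale per gene) of the 10 polyamine genes in the 4 groups; each point is 1 library and bars are mean ± SD. Every knockout library lies below every floxed library for Odc1 (at most 108.28 against at least 111.45 CPM), and floxed libraries without STZ stand highest for Amd1 and Smox.

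The 2 genotypes and 2 treatments gave 7 comparisons: each factor within each level of the other, each averaged over the other, and the difference between the STZ effects. Knockout and STZ comparisons within one stratum share control libraries, so their values stand side by side here and are not pooled. In the knockout comparison averaged over STZ, 4 of the 10 genes fell, Odc1, Amd1, Amd2 and Smox, and 0 rose. Amd1 and Amd2 share most of their transcript sequence, so they do not count as independent genes here or below. Of all 12658 tested genes, 4.23% were lower and 9.8% changed in either direction, and 43.1% of the called genes were lower (28.6% with scaling to total counts). In the STZ comparison averaged over genotype, 3 of the 10 fell, Amd1, Amd2 and Smox, beside 2.38% of all tested genes lower. The marker lists differed from each other in that comparison. Of 6 fibroblast markers 6 had values below 0, the nearest to 0 being -8.6e-05, and 2 were called lower. Their summed levels were 1190 to 1961 CPM in floxed, 1225 to 4683 in TKO, 549.9 to 1014 in STZ floxed and 665.5 to 2855 in STZ TKO libraries. Of 8 muscle fibre markers 7 had values below 0 and 1 was called lower, with sums of 137300 to 211100, 74620 to 192900, 50620 to 193200 and 95430 to 165900 CPM in those groups. Of 6 endothelial markers 3 had values below 0 and 1 was called lower, with sums of 263.4 to 336.3, 223.5 to 311.8, 296.7 to 366 and 182 to 277.5 CPM. Of 14 macrophage markers 5 had values below 0 and 0 were called, and of 10 denervation markers 6 had values below 0 and 0 were called. The part of these markers in the STZ values was not tested. Without STZ, 1 of the 10 fell in the knockouts, Odc1, beside 0.363% of all tested genes lower, and under STZ again Odc1 alone passed the test, beside 2.42% lower. In floxed muscle given STZ 1 of the 10 fell, Amd2, beside 0.853% lower (63.2% of called genes lower, 49.6% with scaling to total counts).

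In knockouts given STZ, 0 of the 10 passed edgeR's test, beside 0.142% of all tested genes in either direction, with 1 gene (Smox) at an unadjusted p under 0.05 and 0 by DESeq2. No member had a difference between the STZ effects of both genotypes past the test in edgeR (0 of 10, 0 at an unadjusted p under 0.05, and 0 by DESeq2), beside 0.0079% of all tested genes. The median log2 fold change of the 10 genes in the averaged knockout comparison was -0.19, beside 0.02 over all tested genes, with 5 values above and 5 below 0. In the averaged STZ comparison the median was -0.13, beside 0.02 over all tested genes.

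**Figure D2:**
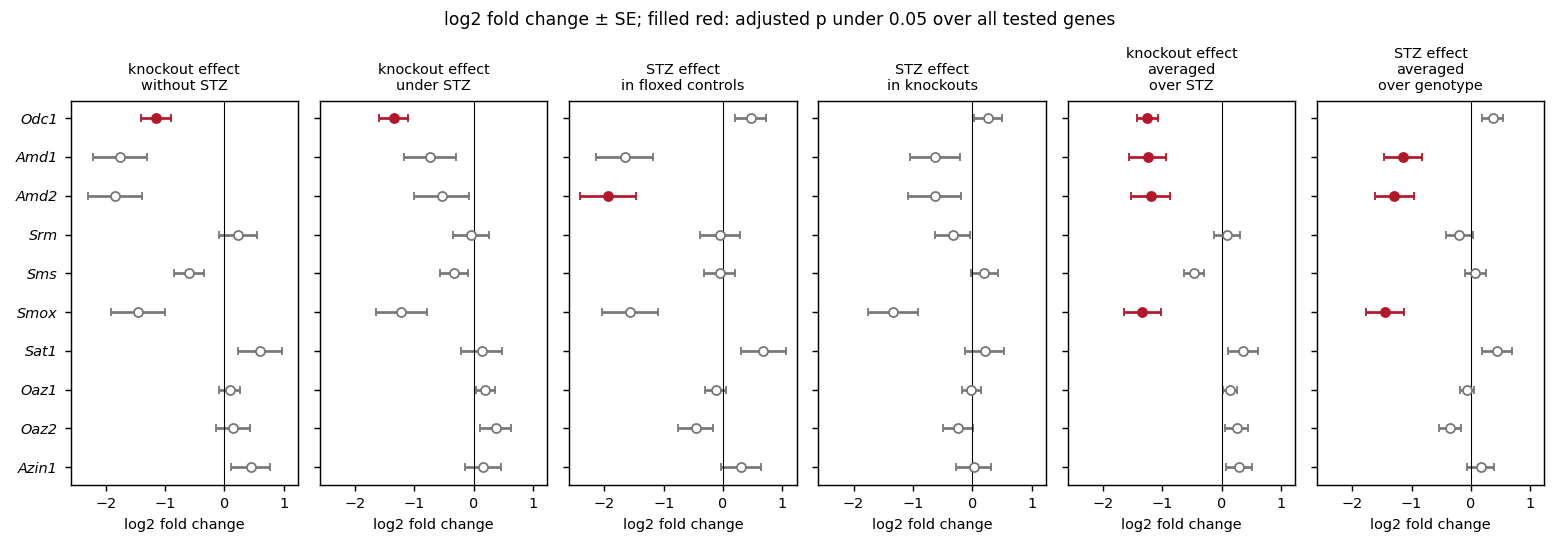
Fold change on the log2 scale ± SE (horizontal axes) of the 10 genes in 6 comparisons; filled red points have an edgeR adjusted p under 0.05 over all tested genes. Odc1 is low in the 3 knockout panels (-1.15, -1.35 and -1.25) and above 0 in the 3 STZ panels, while Smox is low in all 6.

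Odc1 (chr12:17544794-17551505, + strand) was lower in knockout muscle whether or not STZ was given. Its levels were 120.45, 161, 144 and 115 CPM in the floxed libraries, and 45.1 to 81.4 CPM (median 62.2) in the 6 TKO libraries. With STZ they were 159, 212, 111, 266 and 185 CPM in the floxed libraries, and 46.6 to 108 CPM (median 65) in the STZ TKO libraries. All 12 knockout libraries lay below all 9 floxed libraries, a separation in this direction that 0.387% of tested genes had. The log2 fold change in knockouts was -1.15 ± 0.25 (SE; edgeR adjusted p = 0.0358) without STZ and -1.35 ± 0.24 (edgeR adjusted p = 0.00158) under STZ. Averaged over STZ it was -1.25 ± 0.17, with an edgeR adjusted p of 6.09e-05.

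Given STZ, Odc1 in floxed muscle averaged 187 ± 57.9 CPM (SD, n = 5) against 135 ± 21.7 (n = 4), a log2 difference of 0.46 ± 0.27 that did not pass the test (edgeR adjusted p = 0.436). In knockouts the STZ difference was 0.27 ± 0.23 (edgeR adjusted p = 0.654). The averaged knockout call was kept, and the call under STZ likewise, when each of the 21 libraries was left out in turn. The call without STZ was lost in 11 of these 21 fits (without library 1, 2, 3, 5, 6, 9, 13, 16, 19, 20 or 21), in which the edgeR adjusted p reached at most 0.144, while the log2 fold change stayed between -1.25 and -1.06. With the macrophage marker level as a covariate, Odc1 had an averaged knockout value of -0.92 ± 0.26 (edgeR adjusted p = 0.103). No call of the 10 genes in that comparison was kept, and calls over all tested genes went from 1240 to 126. The marker level was -0.58 or higher in every knockout library and -0.596 or lower in every floxed library. This fit therefore cannot tell macrophage markers apart from genotype. Without the 4 libraries highest in those markers (4, 15, 16 and 20), Odc1 still fell, by 1.06 on the log2 scale (edgeR adjusted p = 0.00144), and it was the only one of the 4 genes whose call was kept. The others had values of -1.13 (Amd1), -1.04 (Amd2) and -1.27 (Smox) without those libraries, with edgeR adjusted p of 0.065, 0.095 and 0.0597.

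Amd1 (chr10:40287458-40302186, - strand) was highest in floxed muscle without STZ and lower in each of the other 3 groups. Its floxed libraries had 442, 358, 669 and 597 CPM, and the TKO libraries 36.9 to 222 CPM (median 174). STZ floxed libraries had 219, 137, 144, 74.7 and 242 CPM, and STZ TKO libraries 35.3 to 218 CPM (median 88.9). Neither the TKO nor the STZ floxed libraries reached the lowest floxed library, whereas these 2 groups and the STZ TKO libraries overlapped each other. Non-overlap in this direction was found for 2.61% of tested genes between TKO and floxed and for 5.17% between STZ floxed and floxed.

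The averaged log2 fold change of Amd1 was -1.25 ± 0.32 for the knockout (edgeR adjusted p = 0.0145) and -1.14 ± 0.32 for STZ (edgeR adjusted p = 0.0441). The single comparisons did not pass: without STZ the knockout value was -1.76 ± 0.46 (edgeR adjusted p = 0.0891), and in floxed muscle the STZ value was -1.66 ± 0.49 (edgeR adjusted p = 0.0906). Under STZ the knockout value was -0.73 ± 0.44, and in knockouts the STZ value was -0.63 ± 0.42. The difference between the STZ effects, 1.03 ± 0.64, did not pass the test either. Leaving out any 1 library kept the averaged knockout call, but the averaged STZ call was lost in 14 of 21 such fits, with an edgeR adjusted p of at most 0.0885. It was lost without library 1, 2, 5, 7, 9, 10, 11, 13, 14, 15, 16, 17, 18 or 19. The averaged knockout value was -0.70 with the macrophage marker level as a covariate (edgeR adjusted p = 0.645) and -1.13 without libraries 4, 15, 16 and 20 (edgeR adjusted p = 0.065).

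Amd2 (chr10:35708675-35711892, - strand) is a near copy of Amd1: 85.7% of the 50-base windows of its transcript also occur in Amd1, and 76.7% of those of Amd1 occur in Amd2. How reads that fit both were counted is not given in the sources used here, so the counts of the pair cannot be cleanly separated and the 2 values are not independent. Amd2 had 14.5, 9.47, 34.1 and 22.2 CPM in floxed libraries and 1.31 to 9.59 CPM (median 4.97) in TKO libraries, from 9 counts upward. STZ floxed libraries had 5.11, 4.21, 2.86, 3.82 and 10 CPM, and STZ TKO libraries 1.46 to 7.28 CPM (median 2.76). The floxed libraries were the highest as a group, but library 5 (9.47 CPM) was passed by library 2 of the TKO and library 21 of the STZ floxed group.

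Amd2 fell by 1.19 ± 0.33 on the log2 scale in the averaged knockout comparison (edgeR adjusted p = 0.0205) and by 1.29 ± 0.33 in the averaged STZ comparison (edgeR adjusted p = 0.0268). In floxed muscle the STZ change was -1.94 ± 0.48 (edgeR adjusted p = 0.0432), a call lost in 12 of 21 fits that left out 1 library (1, 3, 6, 7, 9, 10, 13, 14, 15, 16, 17 or 19), with an edgeR adjusted p of at most 0.175. The averaged knockout call was lost without library 9 or 21 (edgeR adjusted p of at most 0.0692), and the averaged STZ call without library 9 or 17 (edgeR adjusted p of at most 0.072). With the macrophage marker level as a covariate the averaged knockout value was -0.69 (edgeR adjusted p = 0.684). Annotated Amd pseudogenes drew few reads, none more than 31 counts over the 21 libraries.

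The aminopropyl transferases that follow in the pathway did not pass the test in any of the 7 comparisons. Sms (spermine synthase, chromosome X) had 120.3, 135, 153 and 149 CPM in floxed libraries and 56 to 108.5 CPM (median 98.6) in TKO libraries. Those groups did not overlap, as was found in this direction for 2.61% of tested genes. The knockout value without STZ was -0.60 ± 0.25 (edgeR adjusted p = 0.328). Averaged over STZ it was -0.46 ± 0.17 (edgeR adjusted p = 0.099), and it passed only when library 12, the highest of the STZ TKO group at 167 CPM, was left out (edgeR adjusted p = 0.0342). Srm (spermidine synthase, chromosome 4) had group means of 4.52 to 5.6 CPM and log2 fold changes between -0.33 and 0.23 in the 6 simple and averaged comparisons, with SEs of 0.22 to 0.34. Its counts were 13 to 75 per library.

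Smox (spermine oxidase, chr2:131491496-131525922, + strand) fell with the knockout and with STZ, and was lowest where both were combined. The floxed libraries had 273, 176, 211 and 204 CPM, and the TKO libraries 35 to 113 CPM (median 80.9). STZ floxed libraries had 111, 75.1, 75.6, 6.91 and 95.6 CPM, and STZ TKO libraries 13.5 to 49.1 CPM (median 30.9). All TKO and all STZ floxed libraries lay below all floxed libraries. Of tested genes, 2.61% had this non-overlap for TKO against floxed and 5.17% for STZ floxed against floxed. The STZ TKO libraries lay below 4 of the 5 STZ floxed libraries, library 17 being the exception at 6.91 CPM. TKO and STZ floxed libraries overlapped.

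Averaged over STZ, the log2 fold change of Smox in knockouts was -1.34 ± 0.31 (edgeR adjusted p = 0.00857). Averaged over genotype, the STZ value was -1.45 ± 0.32 (edgeR adjusted p = 0.0128). The 4 single comparisons ranged from -1.57 to -1.22, and none passed (edgeR adjusted p from 0.106 to 0.262). The difference between the STZ effects was 0.24 ± 0.63. Without library 17, Smox passed the test in the knockout comparison without STZ (edgeR adjusted p = 0.0229), in that under STZ (edgeR adjusted p = 0.00541) and in the STZ comparison in knockouts (edgeR adjusted p = 0.0378), and in no other fit that left out 1 library. Both averaged calls were kept in all 21 of these fits, and that for STZ was also kept with the macrophage level as a covariate (edgeR adjusted p = 0.015). The averaged knockout call was lost with that covariate (-1.23, edgeR adjusted p = 0.35) and without libraries 4, 15, 16 and 20 (-1.27, edgeR adjusted p = 0.0597). No 50-base window of a Smox transcript occurs in another gene.

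Sat1, the acetyltransferase of the breakdown arm on chromosome X, was not called in any comparison. It averaged 19.1 ± 2.56 CPM in floxed (SD, n = 4), 28.8 ± 14.6 in TKO (n = 6), 30.6 ± 21.9 in STZ floxed (n = 5) and 33.5 ± 8.67 in STZ TKO libraries (n = 6). Library 17 had 69.3 CPM against 14.7 to 24.5 in the rest of its group, and library 20 had 56.7 CPM against 16.2 to 29.1. Without library 17 the averaged knockout value passed the test, at 0.65 (edgeR adjusted p = 0.0466), against 0.37 ± 0.25 with it. With the macrophage marker level as a covariate the value was -0.42 and did not pass the test.

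The antizymes and their inhibitor were not called in any of the 7 comparisons. Oaz1 (chr10:80826656-80829290) had group means of 81.4 to 94.6 CPM, and its log2 fold changes ran from -0.12 ± 0.18 to 0.20 ± 0.16 in the 6 simple and averaged comparisons. Oaz2 (chromosome 9) averaged 122 ± 8.57 CPM in floxed, 135 ± 22.7 in TKO, 88.4 ± 36.4 in STZ floxed and 114 ± 37.4 in STZ TKO libraries. Its lowest libraries were 17 and 18, at 36.5 and 50.5 CPM. Azin1 (chromosome 15), the antizyme inhibitor, averaged 50.1 ± 15.8, 67.9 ± 20.7, 62.1 ± 42.3 and 69.1 ± 11.8 CPM in floxed, TKO, STZ floxed and STZ TKO libraries. Its averaged knockout value was 0.30 ± 0.22 (edgeR adjusted p = 0.474). It passed only without library 17, left out alone (edgeR adjusted p = 0.0393) or with library 18 (edgeR adjusted p = 0.0294). Library 17 had the highest Azin1 level of all 21 libraries, 136.5 CPM.

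Parts of several transcripts occur in other annotated genes, among them pseudogene copies: 24.3% of Odc1 windows of 50 bases, 21% of Oaz1, 17.5% of Sms and 7.42% of Oaz2. Among copies named as pseudogenes, Oaz1-ps had 710 counts in all 21 libraries, Oaz2-ps 221 and Sms-ps 111. The genes sharing most Odc1 windows were Gm7993, Gm17709 and Gm9115, whose counts were not looked up. Reads that fit a gene and its copy may have been lost from these genes, to a share that was not tested.

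The titles' library codes fall into 6 runs of 3 to 4 consecutive codes, which the labels do not call batches. Within a run, knockout and floxed libraries of the same treatment could be compared 8 times, and STZ and untreated libraries of the same genotype 8 times. Odc1 was lower in the knockout in 8 of 8 within-run differences, by 0.82 to 1.88 on the log2 scale. Amd1 was lower in 8 of 8, and Sms in 8 of 8. Of all tested genes, 5.36% were lower in all 8. For Odc1 these signs were fixed by the separation of all knockout from all floxed libraries given above, so they add no evidence to it. Smox was lower in 7 of 8, the exception being the run with library 17, where the knockout library was higher by 1.44. For STZ, Smox was lower in 8 of 8 differences, by 0.85 to 2.08, beside 3.56% of all tested genes. Amd1 and Amd2 were lower in 7 of 8. Signs were likewise fixed where the compared groups did not overlap. This covers the knockout differences of Amd1, Sms and Smox without STZ, and the STZ differences of Amd1 and Smox in floxed muscle. Odc1 was higher with STZ in 3 of 3 floxed differences, by 0.39 to 0.69, and in 3 of 5 knockout differences. Its STZ change passed the test in neither genotype. The shares of all tested genes with 3 of 3 or 7 of 8 differences of one sign were not counted. With the run as a block in the fit, the averaged knockout call of Amd2 (edgeR adjusted p = 0.0563) and the averaged STZ call of Amd1 (edgeR adjusted p = 0.0594) were lost, as were both averaged calls of Amd1 without the filter on low counts (edgeR adjusted p = 0.0503 and 0.117).

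**Figure D3:**
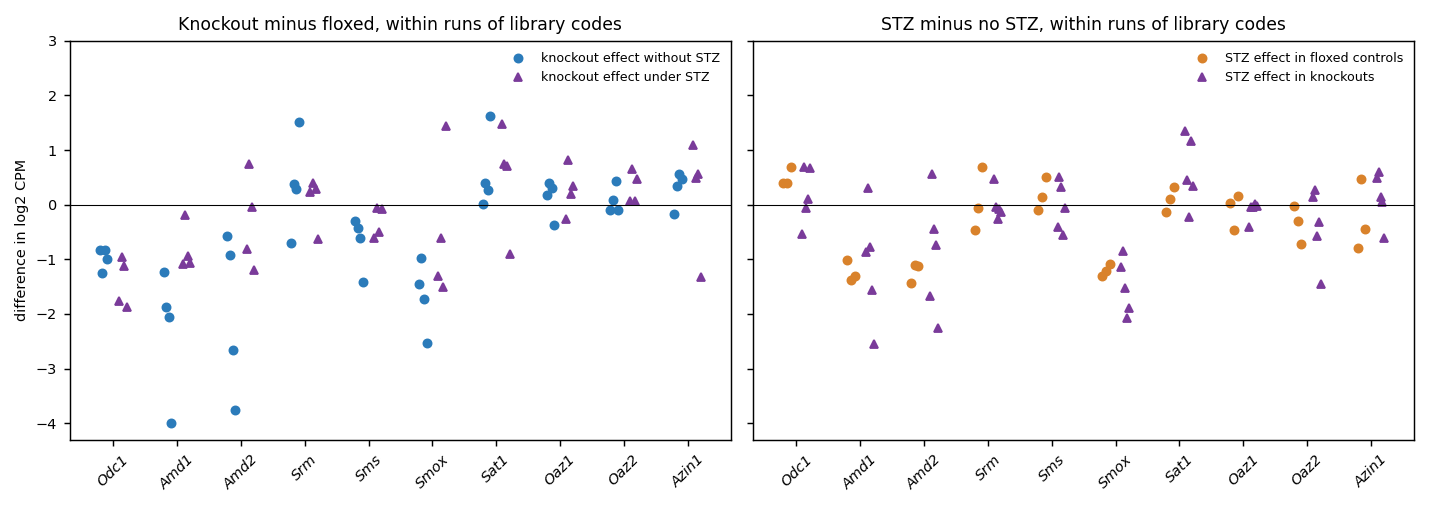
Differences in log2 CPM (vertical axis) between libraries of the same run of codes, knockout minus floxed on the left and STZ minus no STZ on the right. Each point is 1 difference, and a run can give more than 1 point in a panel. Libraries 11 and 12, of the same run and group, enter as their mean. Circles are differences without STZ (left) or in floxed muscle (right), and triangles those under STZ (left) or in knockouts (right). All 8 knockout points lie below 0 for Odc1, Amd1 and Sms, and all 8 STZ points lie below 0 for Smox.

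The spread of Odc1, Amd1 and Smox within groups was compared over the 21 libraries after subtraction of group means, in 9 relations with permutation within groups (100000 resamples, two-sided) and Benjamini-Hochberg adjustment over the 9. Libraries higher in Amd1 than their group were also higher in Smox, with Pearson's r of 0.684 (permutation p = 0.00048, adjusted 0.00432) and Spearman's rho of 0.712 (adjusted 0.00342). Without the 2 libraries farthest from the median of Amd1 (20 and 18), r was 0.662 (adjusted 0.0519), which no longer passed. Without library 17, an alternative chosen after seeing the data, it was 0.781 (adjusted 0.0209), and with run means also subtracted 0.742 (adjusted 0.00333). Odc1 did not follow them, at r = -0.304 with Amd1 (permutation p = 0.242, adjusted 0.311) and -0.417 with Smox (permutation p = 0.131, adjusted 0.279).

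Libraries higher in denervation markers than their group were lower in Amd1, at r = -0.679 (permutation p = 0.011, adjusted 0.0427) and rho = -0.734 (adjusted 0.0072). With Smox the same markers gave r = -0.408 (permutation p = 0.0142, adjusted 0.0427) and rho = -0.59 (adjusted 0.0179). Without libraries 20 and 8, which lay farthest from the median of the marker level, r was -0.424 for Amd1 (adjusted 0.507) and -0.199 for Smox (adjusted 0.519), so neither relation held without those libraries. Both also lost the call without library 17, at r = -0.683 for Amd1 (adjusted 0.0798) and -0.558 for Smox (adjusted 0.161). With run means also subtracted they were -0.8 and -0.656 (both adjusted 0.0112). Macrophage marker levels had no relation past the test with any of the 3 genes, with r of -0.372 for Odc1, -0.341 for Amd1 and -0.0479 for Smox (adjusted 0.279, 0.311 and 0.798). The part of either marker set in the group differences was not tested beyond the covariate fit given above, which cannot tell macrophage markers apart from genotype.

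**Figure D4:**
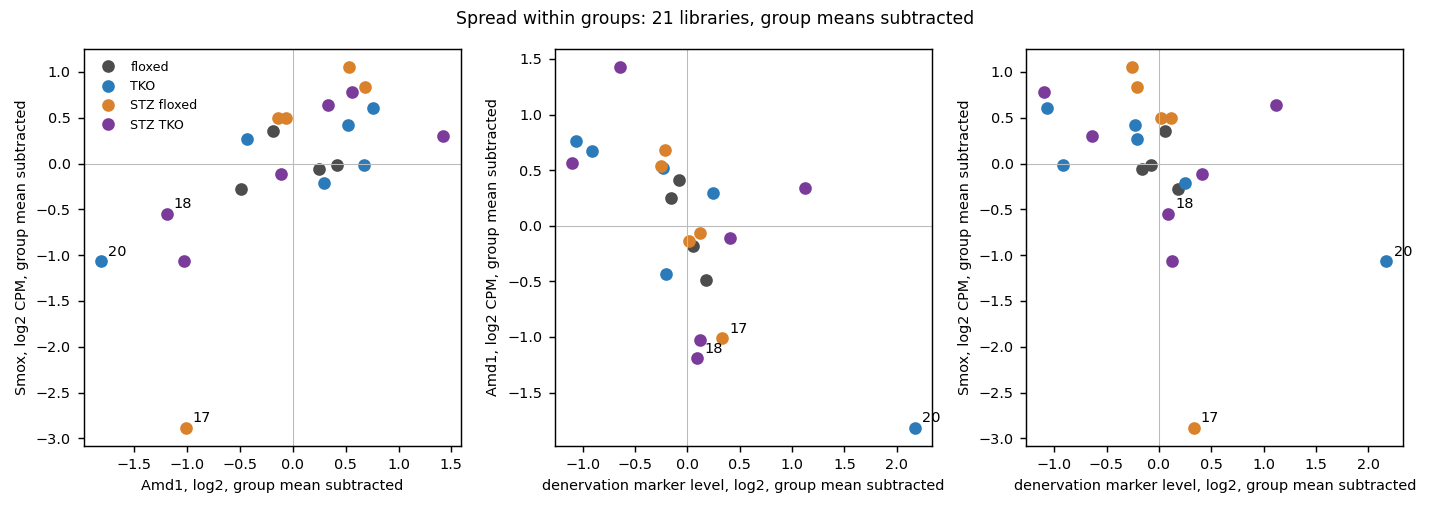
Amd1 against Smox, and denervation marker level against Amd1 and Smox, each in log2 units with the group mean subtracted; points are 21 libraries coloured by group, with libraries 17, 18 and 20 numbered. Amd1 and Smox rise together (r = 0.684), and library 20 lies at the high end of the marker level with low Amd1.

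The 5 named genes whose log2 CPM was most like that of Odc1 over the 21 libraries, leaving out predicted gene models, were Lrrc2 (r = 0.914), Kctd20 (0.883), Sesn1 (0.881), Fdft1 (0.879) and Hbp1 (0.878). Fdft1 is squalene synthase of cholesterol synthesis, and Sesn1 encodes a stress-responsive inhibitor of mTORC1 signalling. With group means subtracted, their r with Odc1 was 0.4 to 0.638. For Amd1 they were Cdk19 (0.947), Gpd2 (0.93), Amd2 (0.921), Gpt2 (0.882) and Cdnf (0.87), with r of 0.753 to 0.903 after subtraction. The part of shared sequence in the likeness of Amd1 and Amd2 was not tested. Cdk19, a kinase of the Mediator complex, lies 37377 bases from Amd1 on the opposite strand. Gpd2 is the mitochondrial glycerol-3-phosphate dehydrogenase and Gpt2 the mitochondrial alanine aminotransferase. For Smox they were Lims2 (0.927), Dnajb5 (0.88), Mafa (0.877), Fsd2 (0.875) and Mccc2 (0.873), with r of 0.762 to 0.871 after subtraction. These are descriptions over libraries that share groups and runs, with no test.

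Of 28 other genes of polyamine metabolism, listed by role, 21 were tested and 1 was called, in the averaged knockout comparison, where 4.23% of all tested genes were lower and 9.8% changed in either direction. That gene was Dhps (deoxyhypusine synthase, which uses spermidine to modify the translation factor eIF5A). Dhps fell by 0.50 ± 0.16 on the log2 scale in the averaged knockout comparison (edgeR adjusted p = 0.0479), with means of 15.6 ± 1.96, 12 ± 2.95, 20.1 ± 6.06 and 13.4 ± 3.27 CPM in floxed, TKO, STZ floxed and STZ TKO libraries. The Dhps call lay near the threshold and was lost under 24 of 29 alternatives, among them 18 of 21 fits that left out 1 library (all but those without library 3, 6 or 8), with log2 values from -0.58 to -0.26. The median log2 fold change of the 21 genes in that comparison was 0.08, beside 0.02 over all tested genes. In the averaged STZ comparison 0 of the 21 passed edgeR's test, and the value nearest to it was that of Atp13a3, a P-type ATPase of the polyamine transporter group, at 0.86 ± 0.25 (edgeR adjusted p = 0.0542). Slc18b1, a vesicular polyamine transporter, had -0.59 ± 0.24.

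Among genes that supply ornithine or draw on the same precursor, Gatm, which starts creatine synthesis and releases ornithine, had 5.36 ± 1.45 CPM in floxed and 17.8 ± 22.9 in TKO libraries. Its averaged knockout value was 1.18 ± 0.43 (edgeR adjusted p = 0.0897), and 1 TKO library reached 64.3 CPM. Oat, which converts ornithine to proline precursors, had -0.21 ± 0.18 in the same comparison. The 8 tested genes of the methionine cycle and of methylthioadenosine salvage, which recovers the by-product of each aminopropyl transfer, had averaged knockout values of -0.23 to 0.25, and 0 of them passed the test. The other 7 genes, Arg1, Arg2, Otc, Agmat, Mat2a, Paox and Oaz3, did not pass the filter, Mat2a having at most 1 count in any library. Whether reads of Mat2a were lost in counting was not tested, so this does not show that the muscle lacks its RNA.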

How the data were processed

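RNA sequencing counts were analysed for 21 libraries in 4 groups, assigned from the genotype and drug in the labels. The authors deposited raw read counts, 1 row per Ensembl gene, without normalization. The submitters' processing notes name STAR, featureCounts and GRCm38.p4. Not given in the sources used here: versions, annotation, strand setting and how reads with several matches were treated. Symbols and gene coordinates came from GENCODE on GRCm38 (45229 identifiers matched, and those without a symbol held 0.0478% of counts).

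Genes were filtered by filterByExpr, scaled by TMM (factors 0.862 to 1.35) and tested with edgeR 4.0.16 in R 4.3.3, in a robust quasi-likelihood model of 4 group means, two-sided, with Benjamini-Hochberg adjustment over 12658 genes and a threshold of 0.05. The SE of a log2 fold change is its size divided by the square root of F. Marker levels are means of log2 CPM centred over libraries. The fit was also run on counts simulated from its own estimates of spread. These held no outlier library, run effect or macrophage effect, so that run does not check the calls against such features. DESeq2 1.42.0, other scalings, no filter, the run of library codes as a block, a macrophage covariate and left-out libraries were alternatives. All pairs of libraries differed beyond counting error (lowest chi-square over its degrees of freedom, 8.61). The genes, lists and tests were chosen with earlier results of these data known. Whether each of the 10 genes passed is given for every comparison, though not every fold change. Other listed genes are named if called or, where a list had no call, up to 3 of them. Genes most alike were the 5 with the highest Pearson r.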

Additional observations from a re-analysis of the deposited data

Results flagged for a closer look

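Of 40 tests for a single library far from the rest of its group (10 genes in 4 groups), 4 passed Dixon's 95% critical value. Chance gives about 1 in 20 such results. Library 17 of the STZ floxed group had the highest Azin1 level, 136.5 CPM against 32.55 to 51.37 in the rest of its group, and the highest Sat1 level, 69.26 CPM against 14.74 to 24.45. The same library had the lowest muscle fibre marker level, and its part in these values was not tested. Library 20 of the TKO group had the highest Sat1 level, 56.71 CPM against 16.18 to 29.1, and the lowest Sms level, 55.98 CPM against 91.05 to 108.5. It also had the highest denervation and macrophage marker levels of its group, whose part was not tested.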

How the results depend on the processing

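No call changed its direction under any alternative. Of 2099 fold changes of single genes under an alternative, 85 lost a call (24 of them for Dhps) and 16 gained one. For STZ in floxed muscle, where 1 gene was called, DESeq2 called 3, the fit of only the 2 groups 2, and the fits without the filter, with the run block and without libraries 17 and 18 each 0. For the knockout without STZ, where 1 was called, DESeq2 and the fit without libraries 17 and 18 each called 3, the fit of only the 2 groups 2, and scaling to total counts, the macrophage covariate and leaving out libraries 4, 15, 16 and 20 each gave 0. Under STZ the 1 call became 0 with the macrophage covariate and 2 without libraries 17 and 18. For the averaged knockout comparison the 4 calls became 0 with the macrophage covariate and 1 (Odc1) without libraries 4, 15, 16 and 20. Without libraries 17 and 18, Azin1 was called as well, as higher (0.59, edgeR adjusted p = 0.0294). For averaged STZ the 3 calls became 1 (Smox) without libraries 17 and 18. The causes were not tested, though leaving out libraries also leaves fewer samples, and the macrophage marker level cannot be told apart from genotype.

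Leaving out 1 library at a time gave 0 to 1 genes for STZ in floxed muscle, 0 to 2 for the knockout without STZ, 1 to 2 for the knockout under STZ, 0 to 1 for STZ in knockouts, 0 for the difference, 3 to 6 for the averaged knockout and 1 to 3 for averaged STZ, where the count of 1 came without library 9 or 17. Calls among all tested genes moved too, over the alternatives other than single left-out libraries: 171 for STZ in floxed muscle became 121 to 421, 65 for the knockout without STZ 18 to 346, 619 for the knockout under STZ 222 to 1068, 18 for STZ in knockouts 4 to 112, 1 for the difference 0 to 4, 1240 for the averaged knockout 126 to 1796 and 575 for averaged STZ 312 to 1091. Scaling to total counts moved the median log2 fold change of all genes. It became 0.184 for the knockout without STZ, from 0.00414, and 0.137 for STZ in floxed muscle, from 0.0162. In the knockout without STZ, Odc1 had -0.97 under that scaling, and its call was lost. A change of scaling shifts all genes largely alike. Subtracting the moved median would therefore largely restore the TMM value and is no separate check.

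No paired analysis was possible because the title numbers, which name the libraries, are unique and none is shared between groups. Libraries were matched only by their run of library codes, in the within-run differences and the run block. At these depths, Srm and Amd2 rested on as few as 13 and 9 counts in a library.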
